A study of Saccharomyces cerevisiae with 14 samples.

Results

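The effect of metformin on the transcripts of growing yeast was measured by setting 4 exponential cultures with 50 mM metformin against 4 exponential cultures without it. These 8 samples were chosen by their labels for phase and treatment, out of 14 samples in the series, and all 6470 features of the gene table were followed. Metformin is a biguanide drug given against type 2 diabetes. By the labels, every sample came from the same haploid MATa strain of Saccharomyces cerevisiae, called WT in the protocol. By its genotype label it carried ura3D0, lyp1D, the HIS3 alleles his3D1 and his3D::kanMX4, the CAN1 replacement can1D::STE2pr-SpHIS5, LEU2 and the tagged allele PDC1-RFP-CaURA3MX4. The label is the same for both groups, including the red fluorescent tag on pyruvate decarboxylase. Reads at CAN1 and MET17, given below, go against it. Colonies were first grown for 24 h in 10 mL of synthetic complete (SC) medium at pH 4, 30 °C and 200 rpm. The cultures were started from them in 50 mL of the same medium, with or without the drug, at an optical density of 0.05. The other 6 samples were stationary cultures with the same strain label, 3 with 50 mM metformin and 3 without. They serve here to show whether a change differed between phases. The labels name individual colonies as the start of the precultures but do not say whether each replicate came from its own colony. The p-values below thus speak only of the spread among these libraries, which could be technical.

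Yeast takes up iron in more than one way. Surface reductases of the FRE family convert ferric to ferrous iron, which the oxidase Fet3 and the permease Ftr1 carry inward, while transporters of the ARN family take in iron bound to siderophores, small chelators that other microbes secrete. The FIT mannoproteins hold siderophore-bound iron in the cell wall. When iron is scarce, the transcription factors Aft1 and Aft2 switch these genes on by binding promoter sequences that often hold GCACCC, commonly as TGCACCC.

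The 8 exponential libraries held 44980672 to 59443572 reads assigned to genes. Reads of the pheromone receptor STE2, a MATa marker, stood at 236 to 317 CPM (reads of the gene relative to the library's total, scaled by the trimmed mean of M values, TMM), and the MATalpha receptor STE3 at 3.14 to 4.36 CPM. Of the loci that the genotype label gives as deleted, URA3 had 0 reads in all 8 libraries, HIS3 had 1 to 18 with metformin and 0 to 7 without, and LYP1 had 0 to 7 with and 3 to 8 without. CAN1 had 1365 to 1667 reads with metformin and 1334 to 1877 without, against the deletion in the label.

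Libraries stood apart in pairs that crossed the treatment. MET17, the O-acetylhomoserine sulfhydrylase of methionine synthesis, had 5937, 7876, 3 and 1 reads in metformin libraries 1 to 4, and 6189, 8597, 0 and 0 in libraries 1 to 4 without metformin. The 6 stationary libraries held 726 to 1151 MET17 reads each. The genotype label, the same for all samples, lists no change at MET17, so in both exponential groups the libraries numbered 3 and 4 go against it. On the first principal component of the 8 libraries (59.6% of the variance) the libraries numbered 3 lay at 19.3 with metformin and 20.9 without, and the other 6 between -17.7 and 1.24. HSP30, a stress protein of the plasma membrane, showed the same pair, with 64.7 CPM in metformin library 3 and 67.6 CPM in library 3 without metformin, against 444 to 825 CPM in the other 6. Of 5238 genes with a mean of at least 5 CPM, 733 (14.0%) were higher and 832 (15.9%) lower in both libraries numbered 3 than in all other 6. Metformin library 4 stood out in mitochondrial ribosomal RNA, with 904 CPM of 15S rRNA against 116 to 186 CPM in the other 7 libraries. Because each number occurs once in each group, the counts of libraries with and without MET17 reads were equal in both groups. The genes that passed are also given below without the libraries numbered 3 and within the pairs of numbers.

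**Figure D1:**
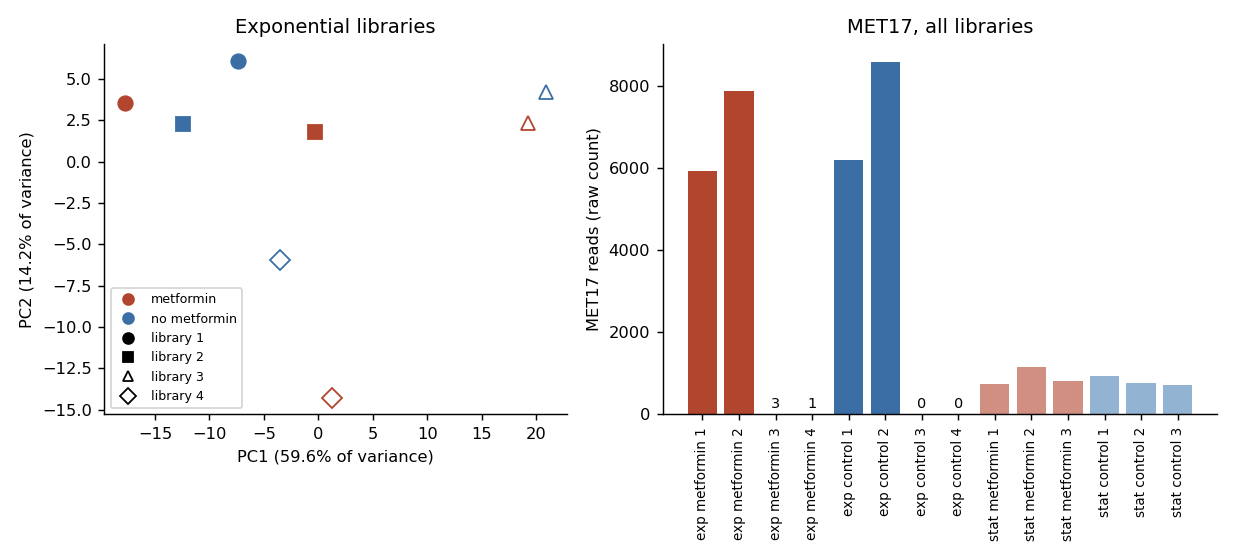
Left, the 8 exponential libraries on the first and second principal components of log2 CPM, with red for metformin, blue for no metformin and a marker shape for each library number. The libraries numbered 3 lie together at the right in both groups. Right, raw MET17 reads in all 14 libraries, where pale bars are stationary cultures and numbers over the axis give counts too small to draw. The libraries numbered 3 and 4 of both exponential groups hold 0 to 3 reads.

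In growing cultures with metformin 6 genes had more transcript, and 5 of them are genes of iron uptake or of the ferric reductase family. FIT2 and FIT3 encode cell wall mannoproteins that retain siderophore iron, ARN2 (also TAF1) a transporter of ferric siderophores, FRE2 a ferric and cupric reductase, and FRE5 a protein of the same reductase family. The sixth gene, ADY2 (also ATO1), encodes an acetate transporter of the plasma membrane. The fold differences of these genes ran from 1.77 for FRE2 to 3.27 for FIT2. Among 6097 genes tested with edgeR's quasi-likelihood test these 6 were higher at a Benjamini-Hochberg adjusted p under 0.05, which is 0.0984% of the genes, and 0 genes (0%) were lower. At an unadjusted p under 0.05 there were 90 higher genes (1.48%) and 18 lower genes (0.295%). Even together these shares were below the 5% that this threshold alone gives when no gene differs. The genes that did not pass are not shown to be unchanged. DESeq2 called 8 higher and 0 lower genes, and limma-voom called 4 higher and 0 lower. In these bulk cultures, more cells that express a gene and more RNA of it per cell cannot be told apart.

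FIT2 had 63.8, 59.3, 42.0 and 43.6 CPM in metformin libraries 1 to 4 and 16.9, 18.9, 13.5 and 14.6 CPM in libraries 1 to 4 without metformin. The lowest library with metformin stood above the highest without it by more than the spread within either group. The mean was 52.2 ± 11.0 CPM with metformin and 16.0 ± 2.42 CPM without (SD, n = 4 each), and the log2 fold change was 1.71 (SE 0.21, edgeR adjusted p = 0.00503). FIT3, the neighbouring gene of the same kind, had 63.5, 68.2, 39.7 and 56.6 CPM with metformin and 17.3, 23.8, 15.2 and 20.7 CPM without. Library 3 was the lowest of its group in both genes and under both conditions, and the groups did not overlap. The FIT3 log2 fold change was 1.56 (SE 0.25, edgeR adjusted p = 0.0289).

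ARN2 stood at 74.6, 74.0, 56.4 and 73.8 CPM in metformin libraries 1 to 4 and at 35.9, 34.1, 33.9 and 43.7 CPM in those without. The metformin library numbered 3 lay below the other 3, which were within 1 CPM of each other, and still above all libraries without the drug. The log2 fold change was 0.92 (SE 0.13, edgeR adjusted p = 0.0151). FRE2 had 10.2, 9.80, 10.7 and 11.6 CPM with metformin and 5.51, 5.57, 6.41 and 6.41 CPM without. The difference had the smallest SE of the 6 genes. Its log2 fold change was 0.82 (SE 0.10, edgeR adjusted p = 0.00447).

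FRE5 had 5.59, 5.62, 5.21 and 6.77 CPM in metformin libraries 1 to 4 and 1.94, 2.03, 1.15 and 2.73 CPM in libraries 1 to 4 without metformin. Every library with the drug was above all of those without, at a log2 fold change of 1.57 (SE 0.24, edgeR adjusted p = 0.0221). ADY2 was the weakest of the calls, at 1.38, 1.12, 1.69 and 1.40 CPM with metformin and 0.773, 0.837, 0.596 and 0.631 CPM without. The groups again did not overlap, and the log2 fold change was 0.98 (SE 0.17, edgeR adjusted p = 0.0455). FIT2 and FRE2 passed in all 16 alternative fits. ARN2 passed in 10, FRE5 in 9, FIT3 in 8 and ADY2 in 3, and the sign of the difference was positive for all 6 genes in each of them.

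**Figure D2:**
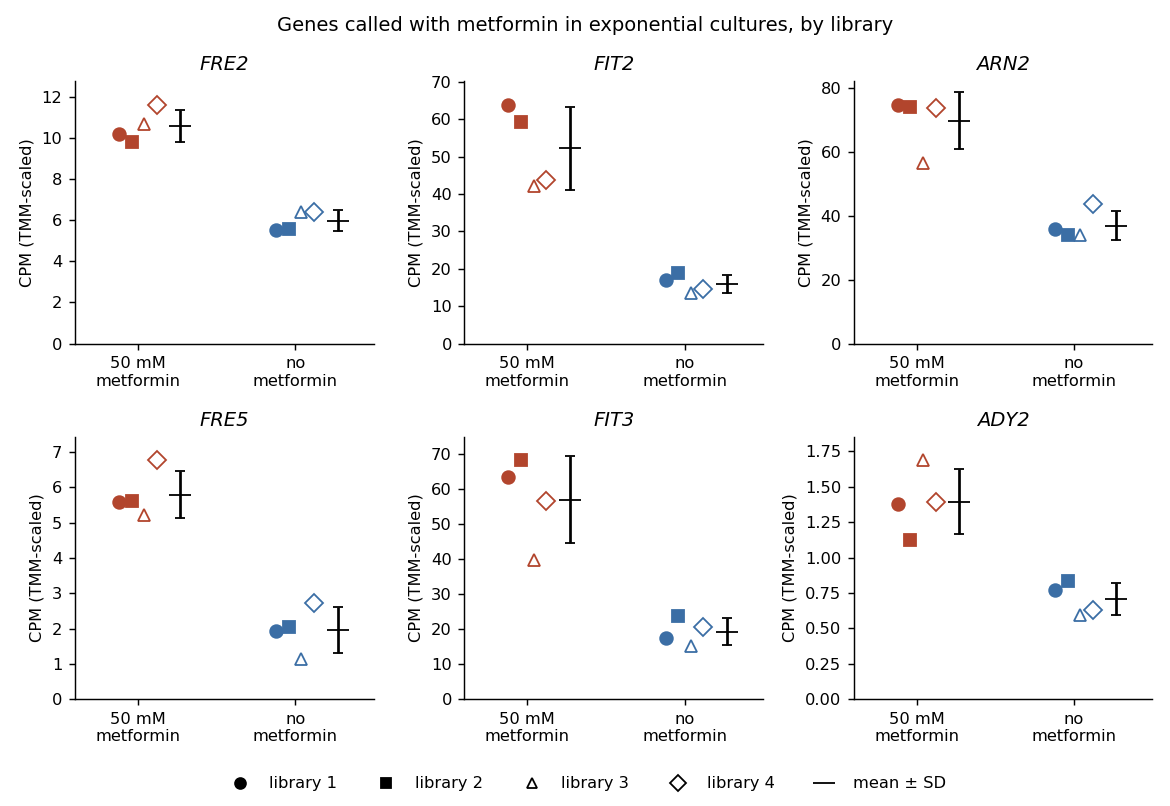
CPM of the 6 genes that passed, in each exponential library, with 50 mM metformin left of no metformin in each panel. Marker shapes give the library number (open for 3 and 4, which lack MET17 reads), and the bars beside the points give the mean and SD (n = 4 each). Every metformin library lies above every library without the drug, for example 42.0 to 63.8 against 13.5 to 18.9 CPM in FIT2. The genes were picked by a test on these same libraries, so this separation is not separate support.

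The 5 iron genes kept their calls without both libraries numbered 3, and ADY2 did not (log2 fold change 0.78). The difference was also fitted within the libraries numbered 1 and 2 and within those numbered 3 and 4. In the pairs with MET17 reads (1 and 2) the log2 fold change was 1.78 for FIT2, 1.68 for FIT3, 1.09 for ARN2, 0.85 for FRE2 and 1.49 for FRE5. In the pairs without MET17 reads (3 and 4) it was 1.61 for FIT2, 1.42 for FIT3, 0.75 for ARN2, 0.80 for FRE2 and 1.64 for FRE5. For ADY2 the values were 0.63 in libraries 1 and 2 and 1.33 in libraries 3 and 4. With 2 libraries a group no gene passed over all genes in either pair, and 0 genes passed in the test of the difference between the pairs. At an unadjusted p under 0.05, which alone gives 5% when no gene differs, these 3 tests called 31, 306 and 173 of 6097 genes.

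FIT2, FIT3 and FRE5 lie next to each other near the right end of chromosome XV. In the R64 annotation of RefSeq, FIT2 is the plus-strand gene at chrXV:1059531-1059992, FIT3 the minus-strand gene at chrXV:1060441-1061055 and FRE5 the plus-strand gene at chrXV:1061564-1063648. FIT2 and FIT3 are separated by 448 bases, and FIT3 and FRE5 are transcribed away from each other across 508 bases. FRE3, another ferric reductase, lies on the other side of FIT2 at chrXV:1055545-1057680 with the small open reading frame YOR381W-A between them.

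The genes around this group did not pass. FRE3 had 20.5 to 25.3 CPM with metformin and 14.3 to 19.1 CPM without, without overlap between the groups (log2 fold change 0.43, SE 0.12, edgeR adjusted p = 0.999). YOR381W-A, at 0.578 ± 0.119 CPM with metformin and 0.572 ± 0.0529 CPM without (SD, n = 4 each), differed by 0.02 on the log2 scale (SE 0.21). Beyond FRE5, YOR385W differed by -0.09 (SE 0.25) and PHR1, a DNA photolyase, by -0.05 (SE 0.22). YOR387C, at 0.269 ± 0.124 CPM with metformin and 0.119 ± 0.0459 CPM without (SD, n = 4 each), differed by 1.18 (SE 0.49, edgeR adjusted p = 0.999). The 3 called genes thus form an unbroken run bounded by genes with differences near 0.

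**Figure D3:**
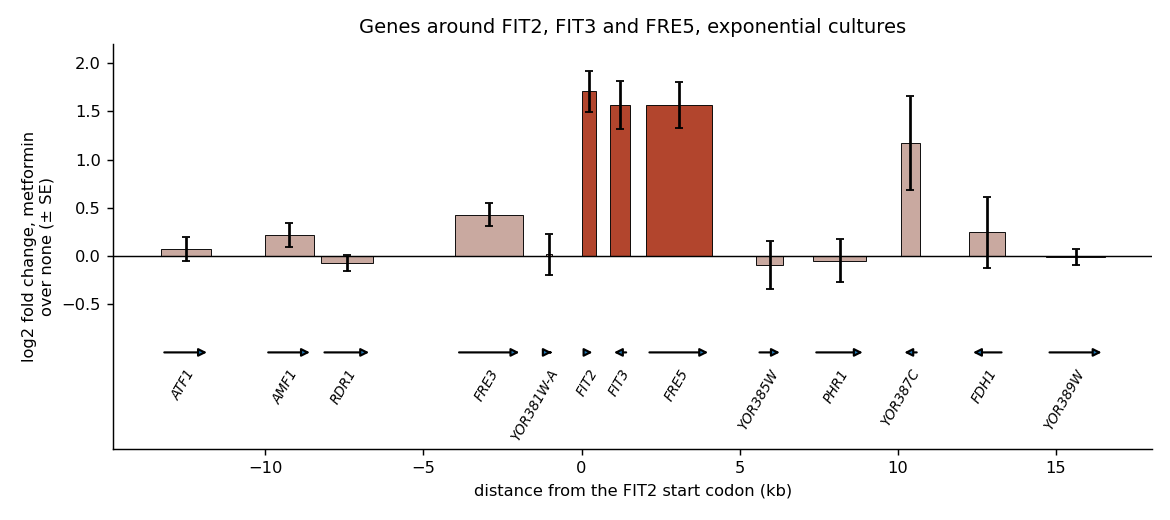
Log2 fold change, metformin over none, with its SE for 13 neighbouring genes of chromosome XV, drawn to scale by distance from the FIT2 start codon in kb, with arrows for the direction of transcription. Dark bars are the 3 genes that passed, FIT2, FIT3 and FRE5, at 1.56 to 1.71, and pale bars did not pass.

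The stretches upstream of the 4 called genes with the clearest contrast in this sequence are given next. FIT2 and FIT3 hold GCACCC, and ARN2 and FRE2 do not. Other forms of the sequence that Aft1 and Aft2 bind were not searched, so their absence is not shown. Each line gives, from the R64 genome of RefSeq and read 5′ to 3′ on the strand of the gene, the 200 bases that end 100 bases before the annotated gene start. Capitals mark TGCACCC or GCACCC and their reverse complements. The FIT2 stretch is chrXV:1059231-1059430 (plus strand), the FIT3 stretch chrXV:1061156-1061355 (minus strand), the ARN2 stretch chrVIII:10314-10513 (minus strand) and the FRE2 stretch chrXI:11327-11526 (minus strand).
FIT2: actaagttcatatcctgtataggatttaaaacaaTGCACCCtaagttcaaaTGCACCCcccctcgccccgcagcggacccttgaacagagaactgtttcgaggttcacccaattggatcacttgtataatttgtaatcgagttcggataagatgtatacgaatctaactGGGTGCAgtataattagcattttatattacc
FIT3: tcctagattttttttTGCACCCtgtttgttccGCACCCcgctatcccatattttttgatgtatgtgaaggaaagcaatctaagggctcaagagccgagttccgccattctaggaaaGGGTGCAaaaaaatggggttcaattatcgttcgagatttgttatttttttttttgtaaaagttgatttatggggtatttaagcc
ARN2: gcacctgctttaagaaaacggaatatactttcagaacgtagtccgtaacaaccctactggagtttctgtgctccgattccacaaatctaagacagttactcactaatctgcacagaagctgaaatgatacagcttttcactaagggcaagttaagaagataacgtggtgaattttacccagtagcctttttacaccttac
FRE2: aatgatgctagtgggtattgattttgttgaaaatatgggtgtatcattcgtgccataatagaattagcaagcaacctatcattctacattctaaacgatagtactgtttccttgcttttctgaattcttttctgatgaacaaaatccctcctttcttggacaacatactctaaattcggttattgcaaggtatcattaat

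TGCACCC was searched on both strands in the 300 bases before the annotated start of each tested protein-coding gene outside the mitochondrial genome. It occurred in 79 of 5838 windows (1.35%), and the shorter GCACCC, which every TGCACCC contains, in 238 (4.08%). FIT2 had 3 copies of TGCACCC, starting 266, 249 and 131 bases before the gene. FIT3 had 2 copies, at 285 and 184 bases, and a GCACCC at 268. FRE5 had 1 copy, at 230 bases, and its window shares 92 bases with that of FIT3, so the copy is the same one that stands at 285 bases before FIT3. The windows of ARN2, FRE2 and ADY2 held neither sequence over all 300 bases. Outside the called genes, 7 of the 12 higher genes named below had TGCACCC and 0 of the 12 lower ones did. It stood in 6 of 7 windows of the siderophore genes, 2 of 8 of the reductases, 6 of 13 of reductive uptake and transport, 3 of 11 of the iron-sparing genes and 0 of 8 of the regulators.

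The differences of all genes were then read by the presence of these letters. Of the 79 genes with TGCACCC, 58 (73.4%) had positive differences (median 0.04 on the log2 scale), and 12 (15.2%) had groups that did not overlap with metformin higher, against 0.853% of all genes tested. With the 5 iron lists left out, 43 of 62 (69.4%) were positive, 2 did not overlap and the median was 0.02. Of the 5759 genes without it, 52.9% were positive and 0.660% did not overlap with metformin higher. These shares were not tested, and the letters do not show that a factor bound there.

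The siderophore genes were the list with the most called members. All 7 members were tested and had positive differences, 3 of them rose, and the median log2 fold change was 0.57 against 0.01 for all 6097 genes. Of those 6097 genes, 3222 had positive differences. ENB1, the transporter of the siderophore enterobactin, had 187, 148, 129 and 146 CPM with metformin and 109, 95.8, 97.9 and 109 CPM without. Both groups of ENB1 kept apart, yet the difference of 0.57 (SE 0.16) did not pass (edgeR adjusted p = 0.999). SIT1 (also ARN3), a transporter of ferrioxamine, had 94.2 to 110 CPM with metformin and 60.9 to 86.6 CPM without (0.52, SE 0.16). ARN1, another siderophore transporter, had 81.3 ± 4.07 CPM with metformin and 56.2 ± 7.75 CPM without, also without overlap (SD, n = 4 each, log2 fold change 0.53, SE 0.17). FIT1, the third FIT mannoprotein, overlapped between groups, at 3.84 to 5.69 CPM with metformin and 3.80 to 4.93 CPM without (0.25, SE 0.14). Its window holds 2 copies of TGCACCC.

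All 8 ferric and cupric reductases had positive differences with all libraries in the fit, with a median of 0.43, and FRE2 and FRE5 rose. The 6 other members are known or putative metalloreductases and none of them passed. FRE4 differed by 0.43 (SE 0.16), with 3.86 to 5.57 CPM with metformin and 2.47 to 4.43 CPM without. FRE1, the main surface reductase together with FRE2, differed by 0.30 (SE 0.12), at 41.1 ± 6.12 CPM with metformin and 33.4 ± 5.24 CPM without (SD, n = 4 each). FRE6, of the vacuole, differed by 0.16 and FRE8 by 0.15. FRE7 lay at or below 1.25 CPM in every library and differed by 0.47 (SE 0.34). Its value was -0.03 without metformin library 3, -0.46 within the libraries numbered 1 and 2 and 1.02 within those numbered 3 and 4.

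In the high-affinity reductive system no gene passed. FET3, the multicopper oxidase, had 675, 718, 636 and 721 CPM in metformin libraries 1 to 4 and 502, 473, 548 and 561 CPM in those without. Every metformin library was higher, and the difference of 0.40 (SE 0.16, edgeR adjusted p = 0.999) did not pass. Its partner permease FTR1 had 138, 179, 176 and 176 CPM with metformin and 116, 110, 144 and 134 CPM without, so that metformin library 1 fell inside the range of the other group (0.41, SE 0.22). CCC2, the copper pump that loads Fet3, had 33.9 to 37.1 CPM with metformin and 28.4 to 32.0 CPM without (0.27, SE 0.10). The 13 genes of reductive uptake and iron transport had 9 positive differences, 0 calls and a median of 0.08. FET4, the low-affinity transporter, differed by 0.04, and FET5 and FTH1, the vacuolar pair like Fet3 and Ftr1, by 0.09 and 0.04. The vacuolar importer CCC1 differed by -0.00 and the mitochondrial carriers MRS3 and MRS4 by -0.06 and 0.08.

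The iron-sparing genes were mixed, with 6 of 11 positive, 0 calls and a median of 0.03. TIS11 (also CTH2), which promotes decay of messenger RNAs of iron-using proteins, had 60.1, 49.6, 40.8 and 45.1 CPM with metformin and 31.9, 30.1, 23.4 and 30.0 CPM without. The groups were apart and the difference was 0.76 (SE 0.22, edgeR adjusted p = 0.999). Its paralog CTH1 overlapped widely, at 34.9 to 63.1 CPM with metformin and 36.2 to 57.1 CPM without (-0.08, SE 0.20). HMX1, the heme oxygenase, differed by 0.44 (SE 0.25) and the biotin transporter VHT1 by 0.12. LSO1, a small protein of the iron response, had the highest value of the list at 2.10 (SE 0.72), on 0.328 ± 0.290 CPM with metformin and 0.0748 ± 0.0469 CPM without (SD, n = 4 each). Its value was 1.25 without metformin library 3.

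The regulators and the users of iron showed no call. AFT1 had 41.5 ± 2.57 CPM with metformin and 39.0 ± 1.27 CPM without, and AFT2 had 25.4 ± 0.916 CPM with metformin and 25.3 ± 1.01 CPM without (SD, n = 4 each). The 8 regulators, among them GRX3, GRX4, FRA1, BOL2 and YAP5, had 4 positive differences between -0.10 and 0.09. Heme synthesis had 1 of 8 positive (median -0.02) and iron-sulfur cluster assembly 7 of 21 (median -0.02). ERV1, a sulfhydryl oxidase of the mitochondrial intermembrane space, is in none of these lists and was named by the rule for lower genes given below. It had 25.5 to 26.5 CPM with metformin and 27.2 to 29.1 CPM without (-0.12, SE 0.07, edgeR adjusted p = 0.999). Copper and zinc homeostasis had 6 of 17 positive and a median of -0.01.

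**Figure D4:**
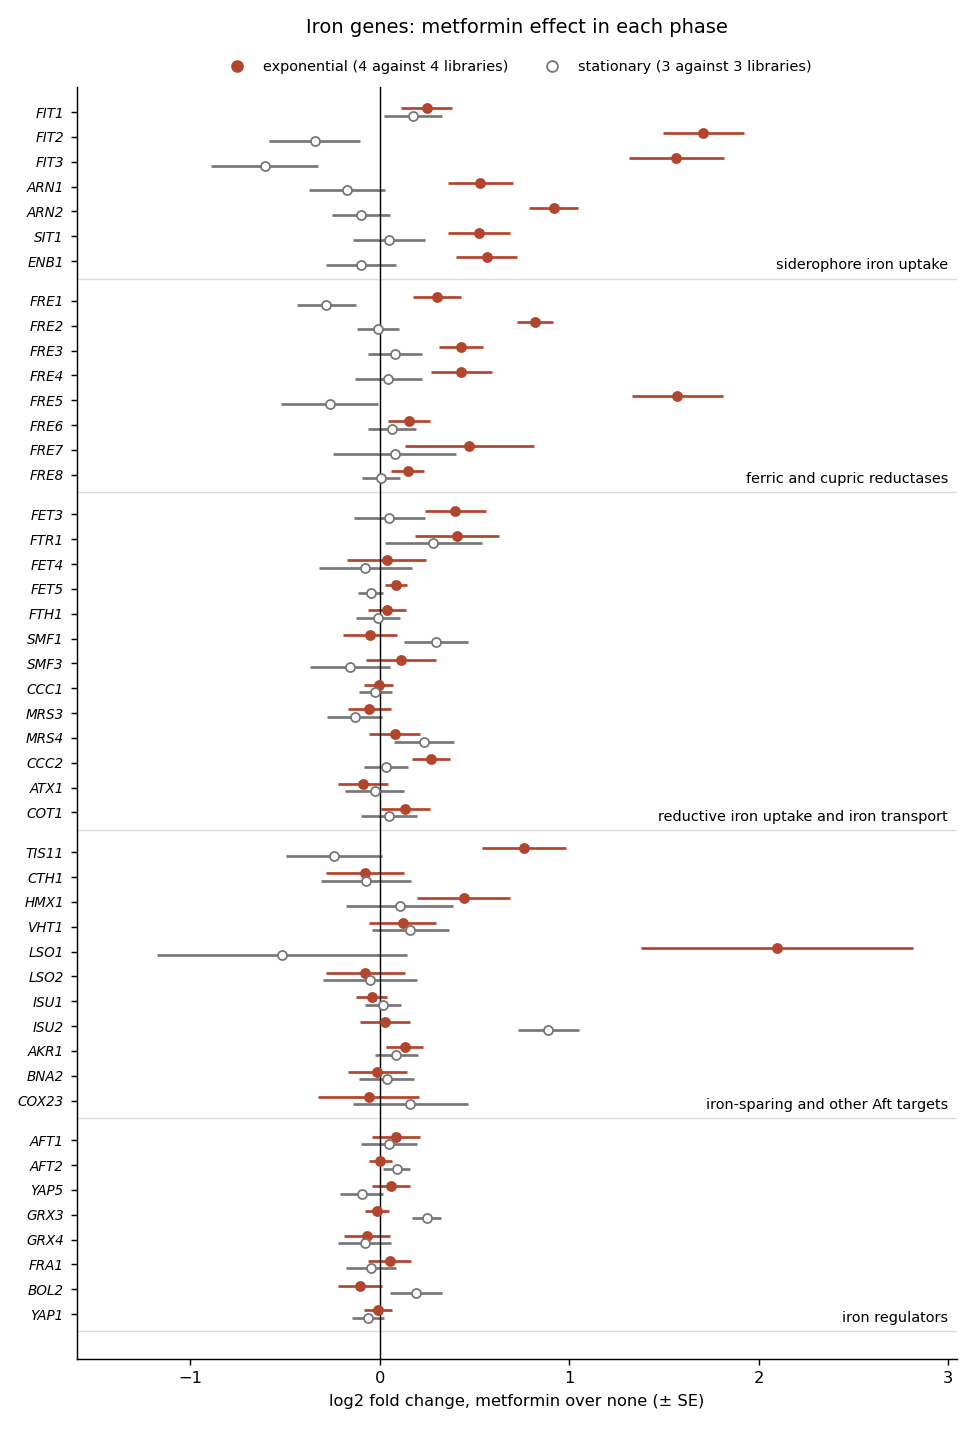
Log2 fold change, metformin over none, with its SE for the 47 genes of the 5 iron lists, filled red for exponential cultures (4 against 4 libraries) and open grey for stationary cultures (3 against 3). Siderophore genes and reductases lie right of 0 in exponential cultures, with FIT2, FIT3 and FRE5 above 1.5, and regulators lie at 0.

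In stationary cultures the log2 fold changes of the iron genes that had passed were below 0, and that of ADY2 was again positive. FIT2 had 177 ± 32.6 CPM with metformin and 224 ± 75.0 CPM without (SD, n = 3 each), and its log2 fold change was -0.34 (SE 0.24). The log2 fold change there was -0.61 (SE 0.28) for FIT3, -0.26 (SE 0.25) for FRE5 and -0.10 (SE 0.15) for ARN2. It was -0.01 (SE 0.11) for FRE2 and 0.82 (SE 0.16) for ADY2. The edgeR adjusted p in stationary cultures was 0.618 to 0.998 for the iron genes and 0.0921 for ADY2. The effect in exponential cultures minus that in stationary cultures was 2.05 for FIT2 (SE 0.32, edgeR adjusted p = 0.0567), 2.17 for FIT3 (adjusted p = 0.101) and 0.83 for FRE2 (adjusted p = 0.101). It was 1.83 for FRE5 (adjusted p = 0.137), 1.02 for ARN2 (adjusted p = 0.139) and 0.16 for ADY2 (adjusted p = 0.998), so none of the 6 passed in edgeR with all libraries. In DESeq2 the difference passed for FIT2 (adjusted p = 9.74e-07), FIT3, FRE2, FRE5 and ARN2 (adjusted p = 0.00387), and not for ADY2. In edgeR without metformin library 3 it passed for FIT2 and FIT3 (adjusted p = 0.0432 for each). With a term for the exponential libraries numbered 3 and 4 it passed for FIT2 (2.04, adjusted p = 0.0242). Over all genes 1 of 6097 (0.0164%) passed this test. It was TRR1, the cytosolic thioredoxin reductase, which had 273 ± 7.07 CPM with metformin and 285 ± 15.5 CPM without in exponential cultures (SD, n = 4 each). In stationary cultures TRR1 had 75.6 ± 13.4 CPM with metformin and 36.5 ± 2.58 CPM without (SD, n = 3 each), and the effect differed by -1.11 (exponential minus stationary, SE 0.15, edgeR adjusted p = 0.0243). This call was lost when any exponential library other than metformin library 3 was left out (edgeR adjusted p = 0.0607 to 0.0932) and without both libraries numbered 3 (adjusted p = 0.0782).

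Groups that did not overlap were found for 52 higher genes (0.853%) and 29 lower genes (0.476%). Random order of 4 against 4 libraries separates the groups in a share of 0.0286 over both directions. Even together the 2 shares lie below that, so lack of overlap by itself does not set a gene apart from chance. By a rule on level, 12 of each that had not passed were read. Of the higher ones, FRE3, ENB1, TIS11, SIT1, ARN1, CCC2 and FET3 are iron genes described above. VMR1, a vacuolar membrane transporter of the ABC family, was the closest to the threshold among these 12. It had 122, 94.7, 127 and 109 CPM with metformin and 81.0, 77.8, 89.4 and 77.8 CPM without. Its groups were apart by a little over 5 CPM, and the difference was 0.47 (SE 0.12, edgeR adjusted p = 0.880). HPF1, a cell wall mannoprotein, differed by 0.46 (SE 0.18), with 32.3 ± 5.18 CPM with metformin and 23.4 ± 2.93 CPM without (SD, n = 4 each). YLR126C, a gene of uncertain function, differed by 0.20, and 2 Ty genes, YDR034C-D and YOR192C-B, by 0.27 and 0.38.

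The 12 lower genes differed by less. AGA2, the adhesion subunit of a-agglutinin, had 34.5, 28.7, 28.9 and 26.2 CPM with metformin and 37.6, 35.7, 37.0 and 35.0 CPM without. Its groups were apart by under 1 CPM and its difference of -0.30 (SE 0.10, edgeR adjusted p = 0.999) was the largest in size among the 12. The other 11 lay between -0.20 and -0.10. They were the S-adenosylmethionine permease SAM3, the mitochondrial ribosomal proteins MRPL50 and MRPL39, the cell wall protein CWP2, the Sec61-associated SBH1, the anaphase-promoting complex subunit APC11, the KEOPS kinase BUD32, the chromatin remodelling subunit VPS71, KXD1, ERV1 and YLR297W.

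Carbon metabolism outside ADY2 did not pass. Acetate use, the glyoxylate cycle and gluconeogenesis had 13 of 20 genes positive, 1 call and a median of 0.02. MLS1, the malate synthase of the glyoxylate cycle, had 2.33 to 2.68 CPM with metformin and 1.19 to 2.80 CPM without (0.37, SE 0.26). Hexose transporters had 16 of 19 positive, 0 calls and a median of 0.36, which was 0.05 without both libraries numbered 3. HXT10, a minor transporter, had 1.77 CPM in metformin library 3 and 0.421 to 0.705 CPM in the other metformin libraries, against 0.199 to 0.505 CPM without the drug. HXT6, a high-affinity transporter, had 3.62 CPM in metformin library 3 and 3.68 CPM in library 3 without metformin, against 36.1 to 103 CPM in the other 6. Glycolysis had 7 of 17 positive and a median of -0.01, and the Snf1 kinase pathway, the yeast counterpart of AMP-activated kinase, had 14 of 19 positive and a median of 0.06, with 0 calls in both.

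Mitochondrial lists had 0 calls, and medians below 0 with all libraries in the fit. Nuclear-encoded subunits of the respiratory chain and ATP synthase had 2 of 38 positive, 0 calls and a median of -0.11, which was -0.22 without metformin library 1. CYC1, the main cytochrome c, had 32.9, 32.9, 37.1 and 32.3 CPM with metformin and 38.6, 36.9, 45.1 and 39.4 CPM without. Library 3 was highest in both groups, and the difference was -0.24 (SE 0.10, edgeR adjusted p = 0.999). Mitochondrial ribosomal proteins had 2 of 71 positive, 0 calls and a median of -0.08. The mitochondrially encoded subunits had 2 of 6 positive (median -0.03, and 0.01 without metformin library 3 or 4 or control library 4), and the tricarboxylic acid cycle 2 of 17 (median -0.04). Per library, the nuclear-encoded respiratory list stood at 0.19, -0.13, -0.23 and -0.11 in metformin libraries 1 to 4 and at 0.12, 0.13, -0.07 and 0.09 in those without, as medians of log2 CPM less the mean of the 8 libraries. The groups overlapped.

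Growth genes had 0 calls. Ribosome biogenesis had 69 of 76 positive, 0 calls and a median of 0.07, which was 0.18 without metformin library 1 and 0.00 to 0.01 without metformin library 2 or 4 or control library 1. Its medians per library were -0.31, 0.24, 0.02 and 0.16 with metformin and -0.13, -0.02, 0.05 and 0.00 without. Cytosolic ribosomal proteins had 17 of 137 positive, 0 calls and a median of -0.06. Their medians per library overlapped, at -0.16 to 0.11 with metformin and -0.02 to 0.11 without. The proteasome had 8 of 33 positive, 0 calls and a median of -0.03.

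Stress genes differed between libraries within each group. The general stress and stationary survival list had 10 of 22 positive, 0 calls and a median of -0.01, which was -0.29 without metformin library 1, 0.25 without metformin library 3, 0.26 without control library 2 and -0.23 without control library 3. Its medians per library were -1.06 in metformin library 3 and -1.14 in library 3 without metformin, against -0.11 to 0.91 in the other 6. Heat shock chaperones had 3 of 24 positive and a median of -0.11, which was 0.04 without control library 1 and -0.32 without metformin library 1. Oxidative stress defence had 8 of 29 positive and a median of -0.05. HSP12, a membrane protein of stationary cells, had 145 ± 28.6 CPM with metformin and 129 ± 37.6 CPM without (SD, n = 4 each).

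**Figure D5:**
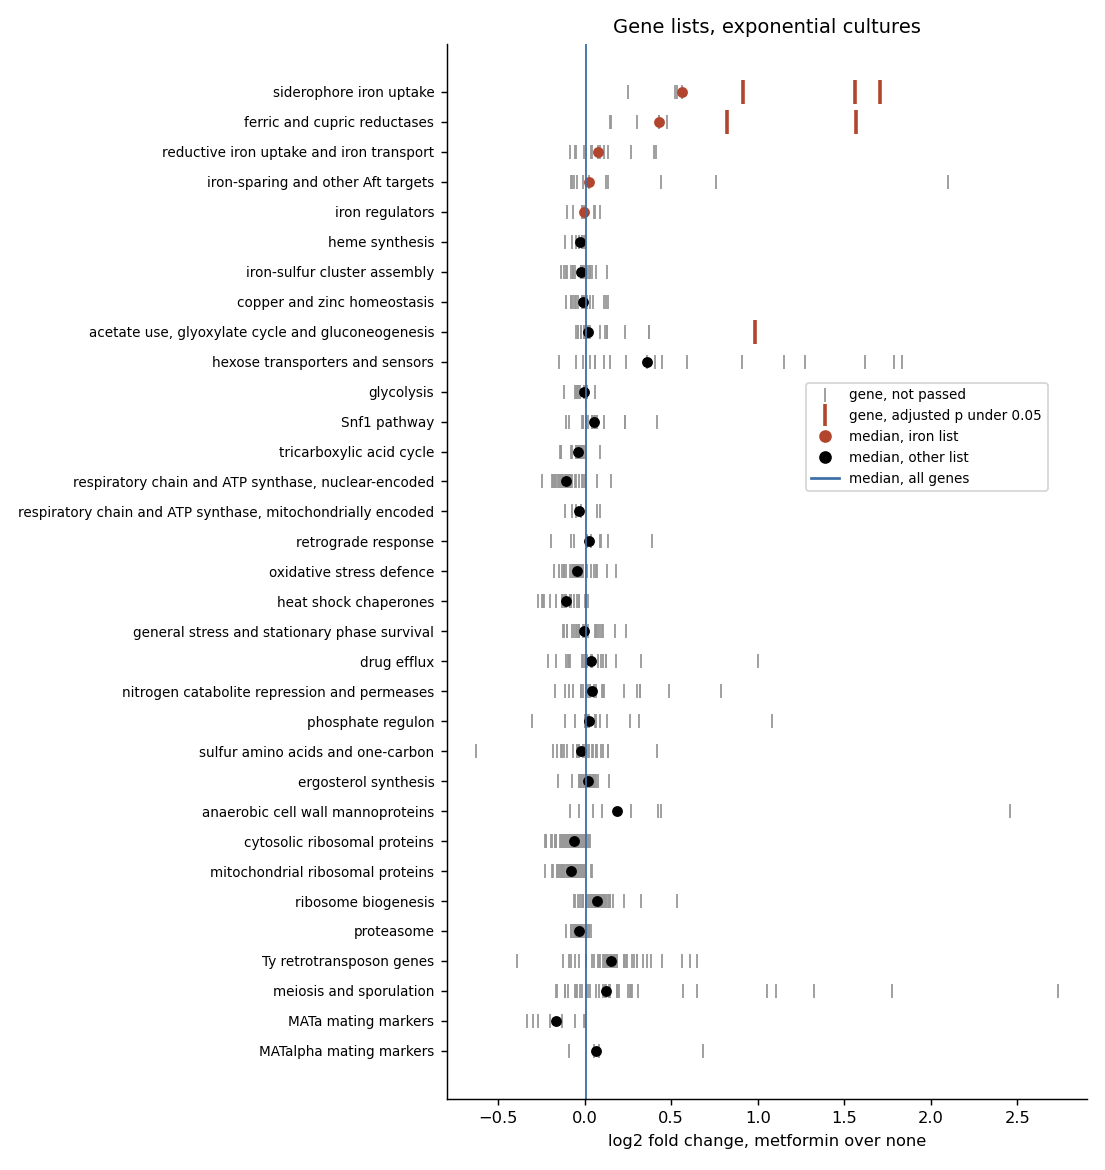
Log2 fold change, metformin over none in exponential cultures, of every tested gene in 33 lists (ticks), with list medians as circles and the median of all genes as a line. The siderophore and reductase lists stand at 0.57 and 0.43, the hexose transporters at 0.36, and most other list medians lie within 0.20 of 0.

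Ty retrotransposons, the subject of the series title, did not pass in these cultures. Of 91 Ty genes 46 had enough reads to be tested, and reads that match several copies are left out by the counting, so values of single copies are uncertain. Of the 46, 40 had a positive difference with 0 calls and a median of 0.15, which was 0.05 without metformin library 4. In that library the list's median stood at 0.40, against -0.17 to -0.00 in the other 7. Reads with more than 1 best alignment were 6.51% ± 0.135 of all counted reads with metformin and 6.44% ± 0.305 without (SD, n = 4 each, exact permutation p = 0.686, adjusted p = 0.686).

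The remaining lists held 0 calls each. Of the MATa markers, 1 of 8 was positive, with a median of -0.16, and in AGA2 and the pheromone gene MFA2 the groups did not overlap. MFA2 had 292 to 433 CPM with metformin and 442 to 503 CPM without (-0.27, SE 0.16). The MATalpha markers had 3 of 4 positive and a median of 0.07. Meiosis and sporulation genes had 27 of 37 positive and a median of 0.12, which was -0.02 without both libraries numbered 3. SPS2, a spore wall gene, had 0.546 CPM in metformin library 3 and at most 0.0961 CPM in the other 7. The other medians were 0.03 for drug efflux (13 of 21 positive), 0.04 for nitrogen permeases and catabolism (15 of 22), 0.02 for the phosphate regulon (13 of 16) and -0.02 for sulfur and one-carbon genes (12 of 28). Ergosterol synthesis stood at 0.02 (16 of 25), the retrograde response at 0.03 (7 of 10) and the anaerobic mannoproteins at 0.19 (6 of 8). PDR5, the main drug efflux pump, had 634 ± 66.3 CPM with metformin and 558 ± 32.8 CPM without (SD, n = 4 each, log2 fold change 0.18, SE 0.10, edgeR adjusted p = 0.999).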

How the data were processed

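The deposited table holds raw counts of reads per gene. Per the submitters' processing notes, STAR, SAMtools and HTSeq were used; the sources used here give no version, genome build, annotation or strand setting. Libraries were directional and depleted of ribosomal RNA, per the labels' protocols. All 6470 features matched RefSeq R64 locus tags, which supplied names, coordinates and sequence. The 5 summary rows stayed out of library sizes and gene tests. They held reads in no feature (2.61% ± 0.306 with metformin and 2.46% ± 0.0555 without, SD, n = 4 each, exact permutation p = 0.514), ambiguous reads (0.444% ± 0.0261 with metformin and 0.424% ± 0.00588 without, exact p = 0.200) and reads aligned more than once. The smallest exact p that 4 against 4 allows is 0.0286.

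Genes were kept by filterByExpr (minimum count 10, minimum total 15), scaled by TMM and fitted in edgeR 4.0.16 (R 4.3.3) with all 14 libraries and group as the term. Tests were two-sided and adjusted by Benjamini-Hochberg over 6097 genes at 0.05. Standard errors come from the test statistic. The coefficient of biological variation was 17.2% with metformin and 14.4% without. On simulated data for this comparison (6097 genes), the test recovered 79.1% of 1.5-fold changes and 94.0% of 2-fold changes, with 6 false calls among 188. The simulation changed many more genes than passed here and left out the split by library number. Its shares can thus overstate the recovery in the real libraries. All replicate pairs differed by more than sampling noise.

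The genes, lists and tests were chosen with earlier results of these data known. Named were all genes that passed, the 12 higher and 12 lower genes of lowest p among those at 10 CPM or more whose groups did not overlap, all members of the 5 iron lists, and examples from the 2 genes of lowest p in each other list. The neighbours of FIT2, the mating type markers, MET17, HSP30, HXT6, the mitochondrial rRNAs, TRR1 and the genes of the closing observations were named outside that rule. Alternatives were DESeq2 1.42.0, limma-voom (limma 3.58.1), other size factors, no filter, the 8 exponential libraries alone, a replicate block and each library left out.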

Additional observations from a re-analysis of the deposited data

Results flagged for a closer look

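In 14 of 142 groups of 4 libraries, the highest or lowest library lay far from the other 3; chance alone marks about 1 group in 20. Metformin library 3 was such a library for ARN2 (56.4 CPM), FRE4 (3.86 CPM), FRE6 (54.0 CPM) and FET4 (19.6 CPM), and for reads in no feature (3.07%). Metformin library 1 was one for FIT1 (3.84 CPM), FTR1 (138 CPM) and the total of gene counts (45525382). Metformin library 4 was one for the mitochondrial 15S rRNA (904 CPM) and 21S rRNA (578 CPM). Without metformin, the marked values were library 2 for SAM3 (85.4 CPM), library 3 for MRS4 (27.1 CPM) and library 4 for MRPL39 (31.2 CPM) and COX23 (1.89 CPM).

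The metformin effect on TRR1 differed between phases, by -1.11 on the log2 scale (exponential minus stationary, edgeR adjusted p = 0.0243). The call was lost in 7 of the 8 fits that leave out 1 exponential library (adjusted p = 0.0607 to 0.0932), with the replicate block (0.0542) and without both libraries numbered 3 (0.0782).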

How the results depend on the processing

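The count of 6 higher genes was 6 with other size factors and with no filter, 8 with DESeq2, 4 with limma-voom, 4 with the 8 exponential libraries alone, and 2 to 5 with each library left out. FIT2 and FRE2 were among the calls each time. DESeq2 added CSM4 and GTO3. Without metformin library 1, 2 or 4, or control library 1 or 2, 2 genes were left, and without control library 3 there were 3. Chosen after seeing the data, the fit without both libraries numbered 3 and the fit with a term for numbers 3 and 4 called 5 genes each, without ADY2. The count of lower genes was 0 in all 16 alternatives. The cause of these moves was not tested.

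Correlations between libraries were taken on log2 CPM after the mean of each gene in its group was taken off, not on expression itself. By these deviations, same-numbered libraries correlated at 0.494, 0.0695, 0.902 and 0.324 for numbers 1 to 4. Number 2 stayed under the 0.1 set for a paired design, so the block was kept as an alternative, although numbers 1, 3 and 4 deviated together. A replicate block within phase called 4 genes, ARN2, FIT2, FRE2 and FRE5, and 0 genes for the difference between phases. With the block, 119 genes were higher and 79 lower at an edgeR unadjusted p under 0.05, against 90 and 18 in the main fit. Libraries 3 and 4 correlated best with their own number, library 1 with metformin correlated better with control library 2 (0.705), and library 2 with control library 1 (0.150).

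The count of 1 gene whose effect differed between phases was 12 with DESeq2 (among them TRR1, FIT2, FIT3, FRE2, FRE5 and ARN2), 0 to 3 with each exponential library left out (FIT2, FIT3 and TRR1 without metformin library 3, and 0 without any of the others), 0 without both libraries numbered 3, and 2 (FIT2 and TRR1) with the term for numbers 3 and 4. The median of the siderophore list lay between 0.53 and 0.63 and that of the reductases between 0.35 and 0.47. The hexose list ranged from 0.05 to 0.47. Depth limits what can be said of genes under 1 CPM, whose large fold changes rest on few reads.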

Other observations

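GTO3, an omega-class glutathione transferase, and CSM4, a meiotic protein of chromosome movement, passed in DESeq2 and not in edgeR; both were named after their values were seen. GTO3 had 6.18, 4.18, 3.93 and 4.56 CPM in metformin libraries 1 to 4 and 2.22, 2.94, 1.82 and 2.87 CPM in those without. The groups were apart by about 1 CPM, with a log2 fold change of 0.94 (SE 0.19, edgeR adjusted p = 0.262). CSM4 had 0.144 to 0.484 CPM with metformin and 0.0117 to 0.115 CPM without (2.08, SE 0.58, edgeR adjusted p = 0.999).

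Some cyclin genes stood apart in both libraries numbered 3. PCL1, a G1 cyclin, had 31.4 CPM in metformin library 3 and 35.3 CPM in library 3 without metformin, against 8.60 to 18.5 CPM in the other 6. CLN1, also a G1 cyclin, had 44.9 CPM in both and 20.5 to 29.2 CPM elsewhere. CLB2, a mitotic cyclin, had 52.0 CPM in metformin library 3 and 50.2 CPM in library 3 without metformin, against 24.5 to 39.2 CPM elsewhere. These genes were chosen because they stood apart in those libraries, and no test was made.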
